A study of Dugesia japonica with 4 samples.

Results

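The features described here are assembled transcripts of the planarian Dugesia japonica whose protein names carry a word of the Wnt, BMP, FGF, hedgehog or Notch pathways. A search for 21 such words, anywhere in the name and with case ignored, found 49 of the 15857 features in the deposited tables. The 49 lay on 36 contigs, so several were pieces of the same assembled sequence. 37 of them, on 26 contigs, were named as components of these pathways. The other 12 only shared letters or a name with them, and are described last. No feature matched 8 of the words, which were dishevelled, notum, bone morphogenetic, tolloid, TGF-beta, follistatin, hedgehog and patched. An absent name does not mean an absent transcript, since only 7973 of all features carried a protein name. Of all features, 4626 carried a name other than uncharacterized.

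RNA was sequenced from amputated heads, with no strain or age of the worms given. The BaCl2 worms had spent 35 days in 1 mM BaCl2, by which time they had regrown heads insensitive to barium. The control worms are labelled wild type. The labels name neither exposure nor regrowth for them, and barium cannot be told apart from regrowth as the source of a difference. Whether either group was fed is not stated, and the design text also names starved worms and 3 replicates per treatment, of which 2 per group were analysed here. Each group had 2 libraries, which the labels call biological replicates, made from pools of 25 worms. Fragments recovered from the deposited values numbered 5901128 and 8304682 in the control libraries and 3395485 and 6875676 in the BaCl2 libraries.

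Planarians regrow lost parts with the help of positional signals, secreted largely by muscle, that tell cells where along the body they lie. Wnt signalling through beta-catenin promotes tail identity and must be low for a head to form. BMP signalling sets the back against the belly, and the FGF receptor relative nou-darake keeps brain tissue within the head.

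Levels are given as FPKM, which divides fragments by the length of the feature and the size of the library, with the 4 libraries on the scale of the authors' pooled table. A feature was tested if it had at least 100 fragments over the 4 libraries and a mean of at least 1 FPKM. That left 19 of the 49, of which 13 were pathway components, against 7982 features in all. The test was limma on log2(FPKM + 1), two-sided, with Benjamini-Hochberg adjustment over all 7982 features and a threshold of 0.05. It called none of the 19, against 113 (1.42%) of all features tested, 16 of them higher (0.2%) and 97 lower (1.22%) in BaCl2 heads. At unadjusted p under 0.05 it called 2 of the 19, against 18.9% of all. Limma voom on the recovered fragments, scaled to library totals, also called none (1.32% of all), and 5 of the 19 at unadjusted p under 0.05 (19.7% of all).

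The signalling transcripts were of low to middling abundance. The tested ones had a median length of 862 nt and a median of 8.08 FPKM, and 69.9% of all features tested lay above that. Their means ran from 1.60 to 15.1 FPKM, and 49.7% of all features tested exceeded the highest of them. The 13 pathway components among them ran from 4.08 to 15.1 FPKM, with a median of 7.89 FPKM. Between the control libraries all 19 tested features differed by a median of 0.22 on the log2 scale, and between the BaCl2 libraries by 0.31. The smallest log2 difference that the fit called among all features was 1.62, or 3.07-fold, while the tested signalling features had a median standard error of 0.28.

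**Figure D1:**
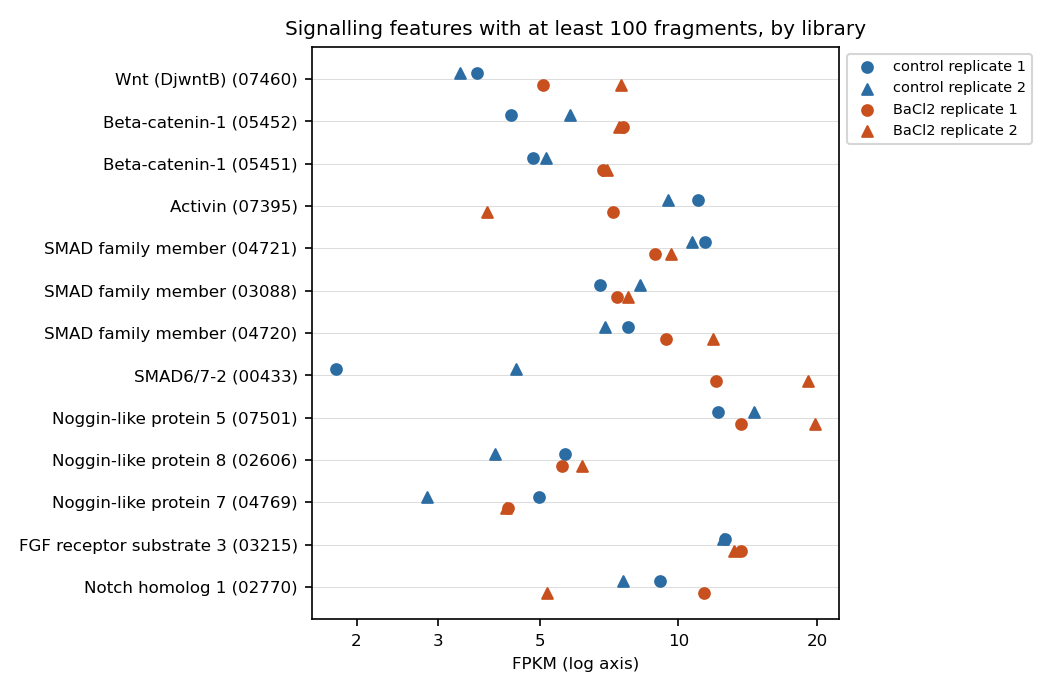
FPKM (log axis) of the 13 tested pathway components in each library, with control libraries in blue and BaCl2 libraries in orange, circles for replicate 1 and triangles for replicate 2. Numbers in brackets are the last digits of the feature ID. SMAD6/7-2 moved from 1.81 and 4.44 FPKM to 12.0 and 19.1 FPKM, while FGF receptor substrate 3 stayed between 12.5 and 13.7 FPKM in all 4 libraries.

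Wnt ligands are secreted proteins that bind receptors on neighbouring cells. 3 features were named as Wnt proteins, each on its own contig. The feature with the gene name DjwntB (TCONS_00007460, 763 nt) had 3.66 and 3.36 FPKM in the control libraries and 5.08 and 7.50 FPKM in the BaCl2 libraries. Both BaCl2 libraries were above both controls, and most so in replicate 2. The means were 3.51 ± 0.211 and 6.29 ± 1.71 FPKM (SD, n = 2 per group), a ratio of 1.79. Limma gave it a log2 fold of 0.67 (SE 0.28, adjusted p = 0.268) with a 95% interval of -0.004 to 1.35.

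The other 2 Wnt features were under 100 fragments and were not tested. An unspecified Wnt (TCONS_00005254, 431 nt) had 18 and 30 fragments in the control libraries and 7 and 17 in the BaCl2 libraries. That made 3.50 and 3.80 FPKM against 1.78 and 2.56 FPKM, so its groups did not overlap and the BaCl2 heads were the lower ones. BaCl2 over control was 0.616 in fragments per depth, with a 95% interval of 0.361 to 1.03 that includes 1. Here and below, depth is that of the deposited scale, not the total of recovered fragments. Such intervals are exact binomial ones and cover counting error only, not the spread between worms. The wntP-3 feature (TCONS_00000323, 154 nt) had 1 and 10 fragments in control and 1 and 5 in BaCl2 heads, with overlapping groups.

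Secreted frizzled related proteins bind Wnts outside the cell and so keep them from their receptors. The features named secreted frizzled related protein 3 were 2 pieces of 1 contig. The longer (TCONS_00006224, 389 nt) had 2 and 4 fragments in control and 10 and 19 in BaCl2 heads. Its levels were 0.476 and 0.619 FPKM against 3.11 and 3.50 FPKM, so the BaCl2 libraries were both above the controls. The shorter (TCONS_00006223, 95 nt) had 8 and 0 against 3 and 17 fragments and its groups overlapped. With both pieces summed, BaCl2 heads had 4.31 times the fragments per depth of control heads, with a 95% counting interval of 2.34 to 8.46. 

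Beta-catenin carries the Wnt signal into the nucleus, and in Schmidtea mediterranea loss of beta-catenin-1 turns tails into heads. 2 long pieces of 1 contig bore the name beta-catenin-1. The piece of 1853 nt (TCONS_00005451) had 4.84 and 5.15 FPKM in the controls and 6.87 and 6.98 FPKM in BaCl2 heads. The piece of 1108 nt (TCONS_00005452) had 4.33 and 5.83 FPKM against 7.57 and 7.43 FPKM. In both pieces the BaCl2 libraries lay above the controls and close to each other. The ratios of the means were 1.39 and 1.48, and limma gave log2 folds of 0.40 (SE 0.24, adjusted p = 0.396) and 0.49 (SE 0.26, adjusted p = 0.344). The pieces share a contig and the same 4 libraries, so they are not independent of each other. With both summed, the fragments were 267 and 475 in control and 313 and 529 in BaCl2 heads, the log2 fold was 0.44 (SE 0.25, limma adjusted p = 0.364) and the call did not change.

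A feature named after a Dugesia japonica beta-catenin (TCONS_00010379, 214 nt) had 2 and 17 fragments in control and 0 and 2 in BaCl2 heads. Its levels were 2.40 and 13.2 FPKM against 0 and 1.85 FPKM, so the control libraries were both higher but far apart. BaCl2 over control was 0.13 in fragments per depth, with a 95% counting interval of 0.0147 to 0.538. It thus lay on the opposite side of control from beta-catenin-1.

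Axins are scaffold proteins of the complex that destroys beta-catenin. Axis inhibition protein A was 2 pieces of 1 contig. The piece of 357 nt (TCONS_00005190) had 3.15 and 4.28 FPKM in the controls and 7.47 and 5.32 FPKM in BaCl2 heads, and that of 156 nt (TCONS_00005191) had 70.4 and 45.8 against 50.5 and 49.0 FPKM. Only the first piece had groups that did not overlap. Summed, they reached the test with 147 fragments and a log2 fold of 0.27 (SE 0.25, limma adjusted p = 0.569). Axis inhibition protein B (TCONS_00000633, 99 nt) had 11 and 11 fragments in control and 11 and 7 in BaCl2 heads, and its groups overlapped.

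**Figure D2:**
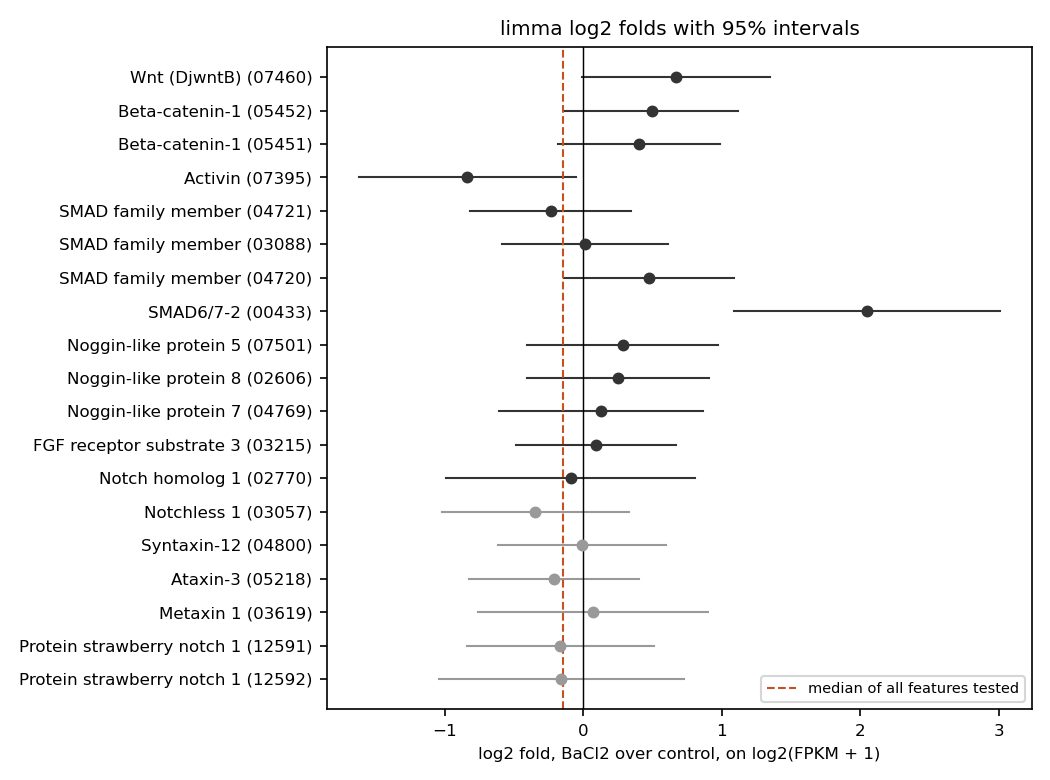
Limma log2 folds (BaCl2 over control) of the 19 tested features with 95% intervals, pathway components in black and other proteins with a matching name in grey. The dashed line is the median of all 7982 features tested, -0.15. Only the intervals of SMAD6/7-2, from 1.09 to 3.01, and activin, from -1.62 to -0.05, do not include 0, and neither feature passed the threshold after adjustment.

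SMADs carry signals of the TGF-beta family, to which BMPs and activins belong, from receptors to genes. SMAD6 and SMAD7 are the inhibitory members in vertebrates, which damp the pathway and are themselves switched on by it. SMAD6/7-2 (TCONS_00000433, 424 nt) had 9 and 34 fragments in the control libraries and 46 and 123 in the BaCl2 libraries. These stood for 1.81 and 4.44 FPKM against 12.0 and 19.1 FPKM. Every BaCl2 library was above every control library, although the control libraries themselves differed more than 2-fold.

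The SMAD6/7-2 mean was 3.12 ± 1.86 FPKM in controls and 15.6 ± 4.996 FPKM with BaCl2 (SD, n = 2 per group), a ratio of 4.99. Limma gave a log2 fold of 2.05 (SE 0.40, adjusted p = 0.0780), so it missed the threshold. It reached the minimum of 100 fragments through the BaCl2 libraries, which held 169 of its 212. Leaving out 1 library at a time gave log2 folds from 1.57 to 2.53. Among these fits it passed only without control replicate 2, the higher control library. That fit takes the lone control library to vary like the BaCl2 libraries. In the authors' deposited table its q-value was 0.0496 with a log2 fold of 2.32, and it was the only 1 of the 49 under a q of 0.05, against 3.43% of all features there.

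3 further features bore the name of the SMAD family (mothers against decapentaplegic homolog). TCONS_00004720 and TCONS_00004721 lie on 1 contig and went opposite ways. The first (616 nt) had 7.76 and 6.93 FPKM in the controls and 9.41 and 11.9 FPKM in BaCl2 heads, and the second (883 nt) had 11.4 and 10.7 against 8.88 and 9.63 FPKM. Neither pair of groups overlapped. Their log2 folds were 0.48 (SE 0.26, limma adjusted p = 0.353) and -0.23 (SE 0.24, limma adjusted p = 0.608). Summed over the contig the fold was 0.02 (SE 0.24). The remaining feature (TCONS_00003088, 842 nt) had 6.76 and 8.25 FPKM against 7.36 and 7.76 FPKM, with overlapping groups and a log2 fold of 0.01 (95% interval -0.59 to 0.62).

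BMPs and activins are the secreted ligands of this family, and in Schmidtea mediterranea activin signalling acts in regeneration. Activin was 3 pieces of 1 contig. The longest (TCONS_00007395, 517 nt) had 11.0 and 9.48 FPKM in the controls and 7.20 and 3.83 FPKM in BaCl2 heads. Both BaCl2 libraries were below both controls, with BaCl2 replicate 2 the lowest. The means were 10.3 ± 1.11 and 5.52 ± 2.38 FPKM (SD, n = 2 per group), a 1.86-fold lower level in BaCl2 heads, and the log2 fold was -0.84 (SE 0.32, limma adjusted p = 0.241). Of the short pieces, TCONS_00007393 had 3 and 16 fragments against 2 and 3, and TCONS_00007394 had 4 and 14 against 7 and 4. All pieces summed gave 85 and 133 fragments in control and 48 and 42 in BaCl2 heads, with a log2 fold of -0.82 (SE 0.33, limma adjusted p = 0.247).

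The Bmp-like protein was 2 pieces of 1 contig, and neither was tested. The piece of 256 nt (TCONS_00005075) had 0 and 2 fragments in control and 2 and 13 in BaCl2 heads, and that of 231 nt (TCONS_00005076) had 0 and 3 against 0 and 13. BaCl2 replicate 2 alone held 26 of the 33 fragments of the contig, and the summed groups overlapped. The ratio of the sums was 6.90, with a 95% counting interval of 2.63 to 22.9.

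Activin receptors are the cell surface kinases that activins bind. The feature TCONS_00007418 (367 nt) had 7.82 and 5.08 FPKM in the controls and 3.51 and 2.71 FPKM in BaCl2 heads, so the BaCl2 libraries were both lower. Its neighbour on the contig (TCONS_00007419, 331 nt) had 0.683 and 2.44 FPKM against 1.78 and 3.96 FPKM, with overlapping groups. The pieces thus differed in direction. Summed they had 31 and 40 fragments in control and 14 and 28 in BaCl2 heads, a log2 fold of -0.40 (SE 0.27, limma adjusted p = 0.425).

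Noggin is a secreted antagonist of BMPs. Noggin-like proteins are related to it, and whether those here act as noggin does was not tested. 4 features on 4 contigs were named noggin-like, and 3 were tested. Noggin-like protein 5 (TCONS_00007501, 440 nt) was the most abundant tested pathway component in both groups, with 12.2 and 14.6 FPKM in the controls and 13.7 and 19.9 FPKM in BaCl2 heads. Noggin-like protein 8 (TCONS_00002606) had 5.68 and 3.995 against 5.60 and 6.19 FPKM, and noggin-like protein 7 (TCONS_00004769) had 4.98 and 2.84 against 4.27 and 4.23 FPKM. In all 3 the groups overlapped. Their log2 folds were 0.29 (SE 0.29), 0.25 (SE 0.27) and 0.13 (SE 0.31), with limma adjusted p values of 0.598, 0.625 and 0.831.

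Noggin-like protein 3 (TCONS_00004282, 258 nt) had the lowest ratio among the pathway contigs that were not tested. It had 7 and 14 fragments in control and 0 and 1 in BaCl2 heads, or 4.68 and 6.08 FPKM against 0 and 0.517 FPKM. The BaCl2 libraries were both below the controls. In fragments per depth BaCl2 over control was 0.0587, with a 95% counting interval of 0.00142 to 0.365. With all features of at least 1 FPKM in the fit, its limma adjusted p was 0.308. That fit called none of the 48 features it covered, against 0.128% of all, with 6 of the 48 at unadjusted p under 0.05 against 11.3% of all.

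**Figure D3:**
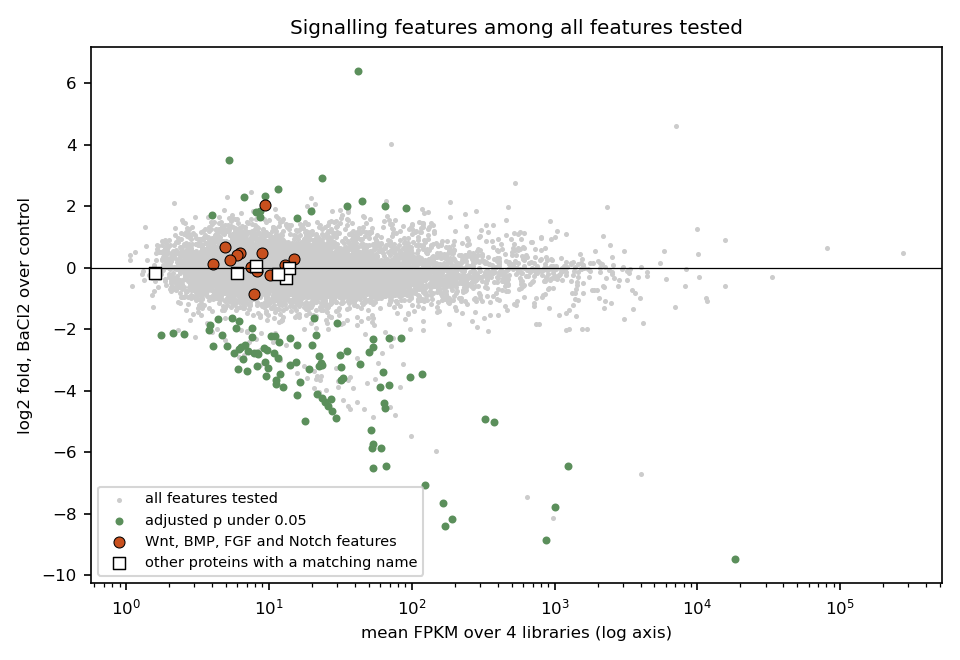
Log2 fold (BaCl2 over control) against mean FPKM over the 4 libraries (log axis) for all 7982 features tested, in grey. Features with an adjusted p under 0.05 are green, tested pathway components orange and the other proteins with a matching name white squares. SMAD6/7-2 lies at 2.05, while every other tested signalling feature lies between -0.84 and 0.67.

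Fibroblast growth factor signals reach the cell through receptor kinases. No feature was named as the receptor itself. FGF receptor substrate 3, an adaptor that docks to the receptor in vertebrates, was 2 pieces of 1 contig. The piece of 648 nt (TCONS_00003215) had 12.6 and 12.5 FPKM in the controls and 13.7 and 13.2 FPKM in BaCl2 heads. Its 4 libraries were close to each other, and the BaCl2 ones slightly higher. The log2 fold was 0.09 (SE 0.24, limma adjusted p = 0.843) with a 95% interval of -0.48 to 0.67. The piece of 57 nt (TCONS_00003214) had 10 and 2 fragments in control and 0 and 3 in BaCl2 heads, where a single fragment stood for 95.2 to 191 FPKM.

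The nou-darake like-2 protein (TCONS_00005891, 452 nt) was not tested. It had 5 and 25 fragments in the control libraries and 20 and 30 in the BaCl2 libraries. The levels were 0.892 and 2.90 FPKM against 4.65 and 4.14 FPKM, so both BaCl2 libraries were above both controls. The ratio of fragments per depth was 2.05, with a 95% counting interval of 1.28 to 3.35.

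Notch is a receptor read by contact between neighbouring cells, and delta-like proteins are its ligands. The notch homolog 1 feature (TCONS_00002770, 907 nt) had 9.11 and 7.57 FPKM in the controls and 11.4 and 5.19 FPKM in BaCl2 heads. The BaCl2 libraries lay on either side of the controls. The log2 fold was -0.09 (SE 0.37, limma adjusted p = 0.904), but -0.59 without BaCl2 replicate 1 and 0.41 without BaCl2 replicate 2. Another notch protein was 2 short pieces of 1 contig (TCONS_00001668 and TCONS_00001669). Summed, they had 20 and 21 fragments in control and 4 and 6 in BaCl2 heads, a ratio of 0.30 with a 95% counting interval of 0.134 to 0.61. 

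The 5 delta-like features, on 4 contigs, had 12 to 56 fragments each. The deepest (TCONS_00013051, 401 nt) had 4 and 3 fragments in control and 7 and 42 in BaCl2 heads, or 0.896 and 0.437 FPKM against 2.04 and 7.28 FPKM. Both BaCl2 libraries were above the controls, and replicate 2 held most of the fragments. Its ratio in fragments per depth was 8.63, with a 95% counting interval of 3.89 to 22.6. TCONS_00004937 was lower in both BaCl2 libraries, with 7 and 10 fragments against 4 and 3, and its 95% counting interval of 0.178 to 1.29 includes 1. TCONS_00006293, TCONS_00006294 and TCONS_00010920 had overlapping groups.

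**Figure D4:**
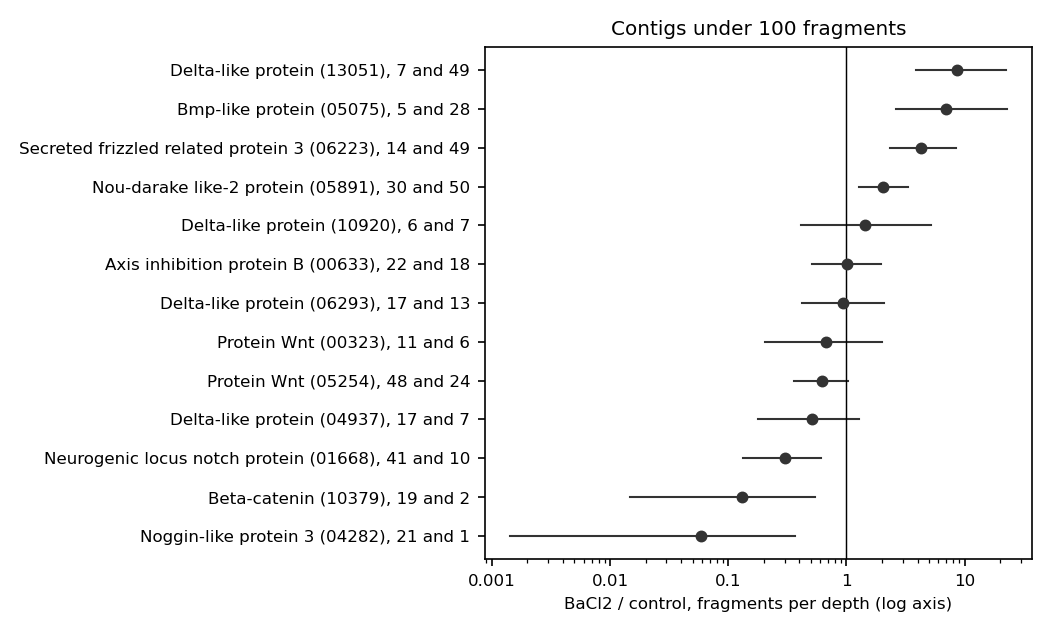
Ratio of fragments per depth (BaCl2 over control, log axis) with 95% exact counting intervals for the 13 pathway contigs with under 100 fragments, pieces of a contig summed. Depth is that of the deposited scale. The labels give the summed control and BaCl2 fragments, such as 7 and 49 for the delta-like TCONS_00013051 and 21 and 1 for noggin-like protein 3.

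Of the 19 tested features 9 had control and BaCl2 libraries that did not overlap, 6 with BaCl2 above and 3 below. Over all features tested the shares were 55.4%, 19.1% above and 36.3% below. Of the 30 not tested 14 did not overlap, 5 with BaCl2 above and 9 below, against 41.9% of all features not tested, 24% above and 17.9% below. With 2 libraries against 2 an exact permutation test of a single value cannot go below p = 0.333. After summing the pieces of each contig, 7 of 18 tested contigs did not overlap, against 55.9% of all, with 4 above (19.4% of all) and 3 below (36.5% of all). Limma called none of the 18 (1.56% of all) and 2 at unadjusted p under 0.05 (19.2% of all).

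The median log2 fold of the 19 was 0.07 and that of all features tested -0.15. 11 of the 19 were above 0, against 39.1% of all. Rescaling the libraries to median ratios moved the median of all features to 0.01 and rescaling to library totals to 0.06. Relative to the median of all features, the 19 stood at 0.22 on the deposited scale and at 0.21 on both others. The 13 pathway components had a median of 0.25, with 10 above 0, and the 6 tested proteins with only a matching name had -0.16. Taking the median without those 6 was added after seeing the data. Matching the search words only at the start of a word kept 16 tested features, and their median was lower, at 0.11.

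Marker transcripts of other cell types were summed in the same libraries. Muscle proteins such as myosin heavy chain, troponin and titin (31 features, all above 0) summed to 12726 and 11899 CPM (a share of the library's fragments) in the controls and 18649 and 19919 CPM in BaCl2 heads. All 49 features, including the 12 set apart from the pathway components, summed to 412 and 442 CPM against 554 and 499 CPM. Those 12 held 4420 of the 11415 fragments of the 49. On the deposited scale the muscle list had 114 and 97.8 FPKM per length in the controls and 126 and 161 FPKM in BaCl2 heads, and none of its 24 tested features passed. Neuronal markers (31 features) had 249 and 341 against 508 and 483 CPM, and markers of neoblasts, the planarian stem cells (12 features), had 1428 and 1319 against 1185 and 1007 CPM. Markers of cilia and epidermis (12 features) had 2279 and 2872 against 1146 and 2020 CPM. Limma called 2 of their 10 tested features lower, against 1.22% of all features tested. None of the 10 had a log2 fold above 0, against 39.1% of all. Limma called none of the 15 neuronal, 7 neoblast and 9 intestinal features tested (1.42% of all). At unadjusted p under 0.05 it called 4, 2 and 1 of these, against 18.9% of all. At that level it also called 5 of the 24 muscle and 4 of the 10 cilia features. Limma voom on library totals called 3 muscle features and 1 neuronal feature, and none of the cilia, neoblast or intestinal ones (1.32% of all). At unadjusted p under 0.05 voom called 14 of the 24 muscle and 5 of the 15 neuronal features, against 19.7% of all. The cilia, neoblast and intestinal lists had 4, 3 and 3 at that level. Intestinal markers (13 features) had 1970 and 1909 against 2298 and 2409 CPM, but on the deposited scale 93.7 and 83.1 against 82.0 and 103 FPKM per length, with overlapping groups and 2 of the 9 log2 folds above 0. The part of these shifts in the signalling values was not tested. In such bulk samples, fewer cells of a type and less RNA per cell cannot be told apart. Of the eye markers, no feature was named opsin or tyrosinase, and 4 arrestin features made up that list, with 4.07 to 12.4 CPM.

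Companion genes were matched by a list of words for other components of these pathways, and for epidermal growth factor receptors and midline guidance proteins such as slit and netrin, which belong to none of them. Of the 30 tested, out of 46 features, 4 were on the Wnt side, 4 on the BMP side, 7 on the FGF side, 2 on the Notch side and 1 on the hedgehog side, with 7 named for epidermal growth factor receptors and 5 for midline guidance. The sides follow the matched words, and a match does not make a feature a pathway component. The FGF side held a GRB2-like endophilin, and the Notch side the serrate RNA effector molecule described below. Limma called none of the 30 (1.42% of all), with 4 at unadjusted p under 0.05 (18.9% of all). 18 of the 30 had groups that did not overlap (55.4% of all), 6 with BaCl2 above (19.1% of all) and 12 below (36.3% of all). Their median log2 fold was -0.15, as over all features tested. The smallest p belonged to a Ski oncogene feature (TCONS_00006455), whose product represses SMADs in vertebrates. It had 0.884 and 0.818 FPKM in the controls and 4.03 and 4.29 FPKM in BaCl2 heads. Its libraries were tight within each group and did not overlap, with a log2 fold of 1.48 (limma adjusted p = 0.0649). Its control values were both under 1 FPKM, so it met the minimum mean of 1 FPKM through the BaCl2 libraries. Limma voom called it on library totals, with 2.47 (SE 0.37, adjusted p = 0.0306) and 1.32% of all features called. On the deposited scale voom also called it, with 2.29 (SE 0.38, adjusted p = 0.0146) and 195 of all 7982 features called. In limma on log2(FPKM + 1) a second Ski feature (TCONS_00006520) had a log2 fold of 0.80 and a further 1 (TCONS_00007457) 0.09.

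The next smallest p values belonged to casein kinase I delta, epidermal growth factor receptor 2, a SMAD and serrate. Casein kinase I isoform delta (TCONS_00015328) is a relative of the kinases that phosphorylate beta-catenin and had 41.9 and 37.9 FPKM in the controls and 12.5 and 25.8 FPKM in BaCl2 heads (log2 fold -1.11, limma adjusted p = 0.203). Smed-egfr-2 (TCONS_00013624) had 1.04 and 1.15 against 2.41 and 2.98 FPKM, and another piece of that name (TCONS_00013625) 9.96 and 10.1 against 9.93 and 11.3 FPKM. Mothers against decapentaplegic 2 (TCONS_00005706), a SMAD whose name lacks that word, had 10.5 and 10.8 against 6.62 and 7.01 FPKM (log2 fold -0.58, limma adjusted p = 0.264). The serrate RNA effector molecule (TCONS_00010071), a protein of RNA processing and not the Notch ligand serrate, had -0.61 (limma adjusted p = 0.271). None of the 5 passed in this fit.

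The 12 features set apart from the pathway components made up 10 contigs, and 6 features were tested without a call. Syntaxins, which fuse membranes, were matched through the letters of axin, as were the mitochondrial import protein metaxin and the ubiquitin protease ataxin-3. Syntaxin-12 (TCONS_00004800) had 14.9 and 12.8 FPKM in the controls and 12.7 and 14.8 FPKM in BaCl2 heads, and ataxin-3 (TCONS_00005218) had 11.4 and 13.5 against 11.5 and 9.72 FPKM. Notchless 1 (TCONS_00003057), which acts in ribosome assembly in yeast, had 14.5 and 15.1 against 9.39 and 13.9 FPKM, with a log2 fold of -0.34 (SE 0.28, limma adjusted p = 0.517). Metaxin 1 (TCONS_00003619) and the strawberry notch 1 pieces (TCONS_00012591 and TCONS_00012592), named after a fly gene of the Notch pathway, had log2 folds of 0.07, -0.16 and -0.16 with overlapping groups.

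Among those not tested, syntaxin 1A (TCONS_00002449), a protein of nerve endings, had 23 and 35 fragments in control and 7 and 11 in BaCl2 heads. It had 8.40 and 8.31 FPKM against 3.33 and 3.11 FPKM, a separation with little spread inside either group. Syntaxin 1A was not in the list of neuronal markers, whose sum went the other way, higher in both BaCl2 libraries. The syntaxin-18 pieces, the shorter metaxin 1 feature (TCONS_00005790), the BMP-2-inducible protein kinase and the Smad nuclear-interacting protein 1 had 6 to 55 fragments each and overlapping groups.

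**Figure D5:**
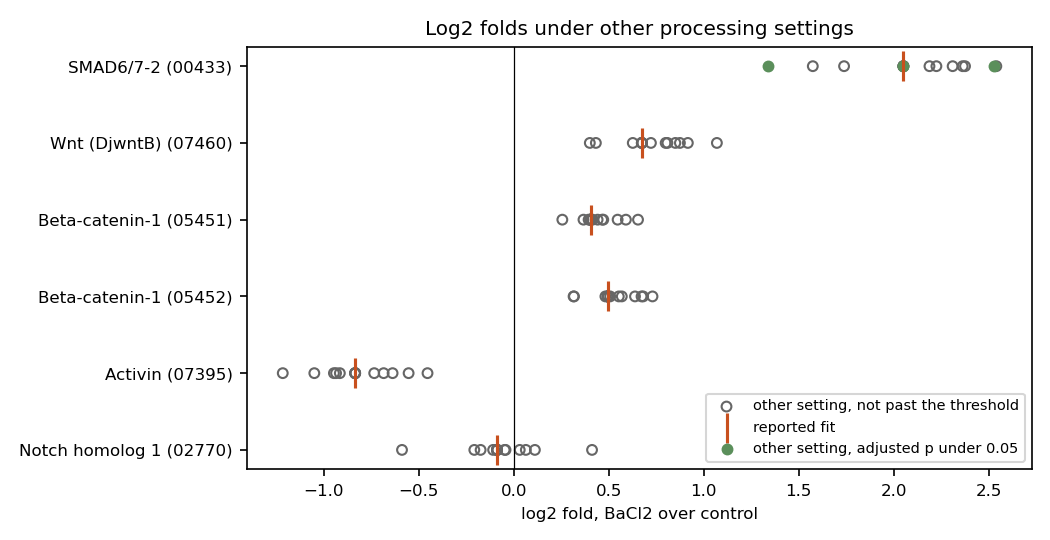
Log2 folds (BaCl2 over control) of 6 tested features under other processing settings, with circles for each setting, filled green where the adjusted p was under 0.05, and an orange bar for the reported fit. SMAD6/7-2 ranged from 1.34 to 2.54 and passed in 3 settings, the other 5 in none, and the notch homolog 1 ranged from -0.59 to 0.41.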

How the data were processed

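The authors deposited 3 tables of assembled features with FPKM values, per the file headers, 1 pooled by group and 2 with 1 library of each group. The deposited log2 fold, p-value and q-value columns are the authors' own comparison, per the file headers. Per the submitters' processing notes, Cufflinks 2.2.1, Cuffdiff, TopHat2 2.0.13, TopHat and Bowtie were used. Their roles and the genome build: not given in the sources used here. Libraries were poly(A) TruSeq, per the labels' protocols.

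The 4 libraries were put on the scale of the pooled table, whose values were the same weighted sum of the replicates within 0.1% in 15203 of 15204 features per group. 440 blank BaCl2 values were taken from the replicate tables, and 764 library values missing there were worked out from the pooled table. FPKM became fragments by modelling fragment lengths of 28 to 440 nt around 200 nt (SD 80 nt); 99.7% to 99.8% of values checked were whole within 0.1 fragments. No source says how fragments that fit several gene copies were counted, so near-identical copies are uncertain.

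Tests used limma 3.58.1 in R 4.3.3, with a mean trend and 2 residual degrees of freedom before moderation, and were tested on simulated data. The members and lists were chosen with earlier results of these data known. Features named by rule were, per role, the 3 most abundant tested and up to 3 per direction with the largest moderated t among those without overlap and at least 1.5-fold apart, and of the companion genes the 5 with the smallest p. Other features are named to account for every member or for a shared name.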

Additional observations from a re-analysis of the deposited data

How the results depend on the processing

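No signalling feature passed in the reported fit, and 1, SMAD6/7-2, passed with a pseudocount of 5 (log2 fold 1.34), with the replicate block, and without control replicate 2 (0 to 1 over the fits without a library). Among all features the 113 calls became 53 with a pseudocount of 0.1, 177 with a pseudocount of 5, 20 without the fragment minimum, 20 without any filter, 172 with at least 300 fragments, 38 with median-ratio rescaling, 25 with library totals, 195 with voom on the deposited scale, and 225 without control replicate 1, 347 without control replicate 2, 242 without BaCl2 replicate 1 and 957 without BaCl2 replicate 2, where the lone library of a group is taken to vary like the other group. Companion genes went from 0 calls to 1 with a pseudocount of 5, with at least 300 fragments and with voom on either scale, and to 0 to 2 without 1 library, the 2 without BaCl2 replicate 2 being casein kinase I delta and Slit. The median log2 fold of the signalling features moved from 0.07 to 0.22 with median-ratio rescaling, 0.27 with library totals, 0.21 with voom on library totals and 0.25 without proteins of other kinds, an alternative added after seeing the data, as was summing by contig. It was -0.01 without the fragment minimum (48 features) and -0.01 without any filter (49 features). With voom on the deposited scale it was 0.01, and with at least 300 fragments 0.01 (13 features). Matching the words only at the start of a word gave 0.11. The median was 0.04 to 0.12 without 1 library. The cause was not tested. Of the 15 named signalling features 12 kept their sign in every setting run. Nothing in the labels pairs libraries by number; deviations of same-numbered libraries correlated at 0.14 over 7982 features, and the replicate block gave 948 calls among all features, 1 among signalling features and 2 among companion genes, casein kinase I delta and Ski (TCONS_00006455). The 30 untested features had 6 to 81 fragments, which limits them to counting ratios.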
